A study of Caenorhabditis elegans with 16 samples.

Results

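Young adult worms without a functional channel that received blue light pulses (light minus ATR) were compared with the same worms kept in the dark (dark minus ATR), to see what the light itself did to the transcriptome. The comparison uses 8 libraries, 4 in each group, of the 16 libraries of the series. Which libraries belong to it was taken from the labels alone, with no measured value. All worms of the series were Caenorhabditis elegans carrying the transgene myo-3p::ChR2(C128S;H134R), a blue light-gated cation channel under a body wall muscle promoter. All-trans retinal (ATR), the cofactor without which channelrhodopsin does not conduct, was left out of the food of both groups. Light minus ATR worms were illuminated at 455 nm in pulses of 5 s, each followed by 20 min of darkness, for 8 h at 18 °C. Dark minus ATR worms stayed unlit at 18 °C for the same time. The remaining 8 libraries came from worms grown from a larval stage on 0.1 mM ATR, with the same pulses (light plus ATR) or in the dark (dark plus ATR). Ruptured and dead worms had been washed away before RNA was taken, so every library describes the intact worms. The groups share the transgene and its unc-119(+) selection marker, and a worm without the transgene was not among the samples.

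Caenorhabditis elegans has no eyes but avoids short-wavelength light. It senses light through LITE-1 and GUR-3, receptor proteins of the gustatory receptor family that act in a few neurons, with the peroxiredoxin PRDX-2 acting beside GUR-3 in the pharynx. Intense blue light also produces hydrogen peroxide in illuminated cells and medium, against which catalases, peroxiredoxins and superoxide dismutases act. The hermaphrodite makes its sperm in the last larval stage, then switches its germline to oocytes, and stores the sperm for self-fertilisation. In bulk RNA of whole worms, fewer cells of a type and less RNA per cell cannot be told apart.

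The libraries held between 19859393 and 29379917 estimated counts on genes in light minus ATR worms and between 19264315 and 28704266 in dark minus ATR worms. Counts on 92 spiked ERCC sequences came to 0.727% to 0.875% of the gene and ERCC counts together in light minus ATR libraries. In dark minus ATR libraries they came to 0.783% to 0.953%, where replicate 4 stood above the other 3 (0.783% to 0.812%). Two-sided exact permutation tests between the groups gave p = 0.83 for depth and p = 0.4 for the ERCC share, where 4 against 4 libraries allow 0.0286 at the least. The defining markers of muscle, pharynx, neurons, intestine, hypodermis and germline were all detected, with means of 2.51 to 1340 counts per 1000000 counts on genes (CPM) in light minus ATR libraries. None of these 11 markers had an unadjusted p under 0.05 (log2 fold changes of -0.07 to 0.26, smallest adjusted p 0.608 in edgeR). The marker of sperm, msp-3, stood apart from them, with 22.8 ± 4.44 CPM in light minus ATR libraries and 15.6 ± 2.07 CPM in dark minus ATR libraries (SD, n = 4 each; log2 fold change 0.55, unadjusted p = 0.0192 and adjusted p = 0.266 in edgeR).

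No gene passed the threshold of the main test in either direction. Of 46904 genes in the tables, 15044 had enough counts to be tested by edgeR's quasi-likelihood test, and 0 were called higher (0%) and 0 lower (0%) in light minus ATR than in dark minus ATR worms at an adjusted p of 0.05. The smallest adjusted p was 0.0704. Without adjustment, 2012 genes had a p under 0.05, of which 1201 were higher (7.98%) and 811 were lower (5.39%). The 4 light minus ATR libraries lay above all 4 dark minus ATR libraries for 498 genes (3.31%) and below all of them for 429 genes (2.85%). DESeq2 on the same counts called 114 genes higher (0.858%) and 63 lower (0.474%) of the 13293 genes to which it gave an adjusted p, and 173 of these 177 genes also had an unadjusted p under 0.05 in edgeR. Whether a gene was called thus depended on the test. In edgeR 9 genes were called higher without dark minus ATR replicate 1 and 3 without light minus ATR replicate 2, and 0 when any other single library was left out.

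**Figure D1:**
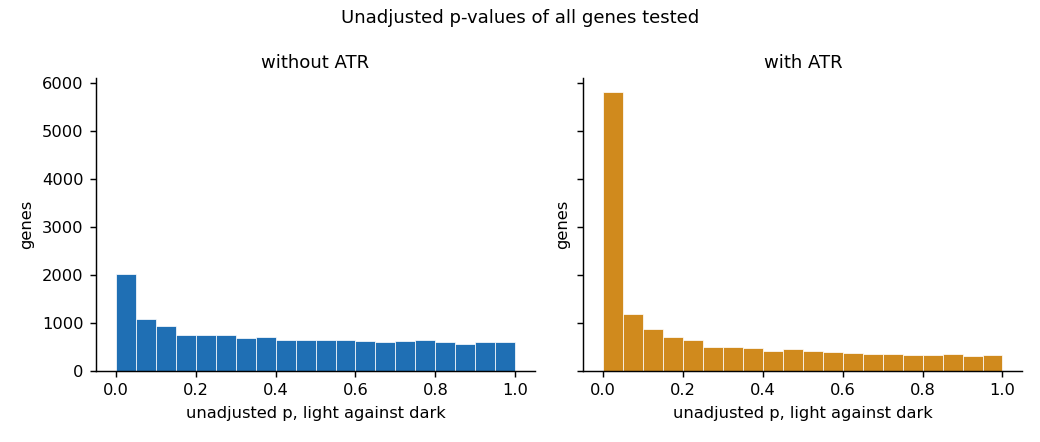
Number of genes (vertical axis) in each interval of 0.05 of the unadjusted edgeR p (horizontal axis), for light against dark without ATR on the left and with ATR on the right, over the same 15044 genes. The first bar holds 2012 genes without ATR and 5807 genes with ATR, and the last bar holds 593 and 326 genes.

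The differences were small. The median size of the log2 fold change without ATR was 0.08, at a median standard error of 0.10, against a median size of 0.15 between light plus ATR and dark plus ATR. The 95% interval of the fold change lay wholly between -1 and 1 for 12994 genes (86.4%) and between -0.5 and 0.5 for 9844 genes (65.4%), so that for most genes tested a larger difference is outside the interval. Only 106 genes had a log2 fold change beyond 1 in either direction, and 68 of them had an unadjusted p under 0.05. The genes with a p under 0.05 were not alike in level. Those higher in light minus ATR worms had a median of 2.07 log2 CPM and a median log2 fold change of 0.55, while those lower had a median of 5.77 log2 CPM and a median log2 fold change of -0.14, beside a median level of 3.50 over all genes tested.

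Among genes with a higher level in light, the smallest p was that of F54F7.3, a protein-coding gene on chromosome X (WBcel235 X:11849392-11850182, minus strand). It had 20.1, 18.3, 20.3 and 21.9 CPM in the 4 light minus ATR libraries, against 13.8, 15.9, 14.9 and 13 CPM in the 4 dark minus ATR libraries. The groups did not overlap, and the log2 fold change was 0.49 ± 0.08 (SE), with an adjusted p of 0.0704 in edgeR and 0.000346 in DESeq2. In worms with ATR the log2 fold change of F54F7.3 was 0.10 (edgeR, adjusted p = 0.409). Next came C54G4.3 (I:8005127-8006448, minus strand), with 3.35, 2.53, 3.21 and 3.67 CPM in light minus ATR libraries, against 2.30, 1.18, 1.45 and 1.30 CPM in dark minus ATR libraries. It was about 1.03 ± 0.18 higher on the log2 scale (SE, edgeR adjusted p = 0.0704), and here the worms with ATR gave a similar value, 0.93 (edgeR, adjusted p = 0.000292). For C15A11.7 (I:7404950-7408511, plus strand) the log2 fold change was 0.45 ± 0.08 (SE, edgeR adjusted p = 0.0832) without ATR and 0.80 with ATR.

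The fourth of the genes with a higher level, spe-4, encodes a presenilin-family membrane protein of the organelles that sort sperm proteins during spermatogenesis. It had 3.58, 2.77, 4.01 and 4.69 CPM in light minus ATR libraries, against 2.08, 1.88, 1.55 and 2.14 CPM in dark minus ATR libraries, with a log2 fold change of 0.97 ± 0.18 (SE, edgeR adjusted p = 0.0984). The fifth of them, nduo-5, encodes a subunit of respiratory complex I on the mitochondrial genome (MtDNA:11691-13272, plus strand), and its annotated exon overlaps that of nduo-3. It had 263, 250, 255 and 261 CPM in light minus ATR libraries, against 228, 216, 221 and 213 CPM in dark minus ATR libraries. Its spread within each group was narrow, and the log2 fold change was 0.23 ± 0.05 (SE, edgeR adjusted p = 0.142). The other 5 genes of the 10 with the smallest p and a higher level in light were M162.7, T08G11.2, F56D6.19, H32C10.1 and ZK84.5, at log2 fold changes of 0.79 to 1.06, each with an adjusted p of 0.142. All 5 were low, with means of 1.38 to 4.07 CPM in light minus ATR libraries and 0.647 to 2.22 CPM in dark minus ATR libraries.

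Among genes with a lower level in light, the smallest p belonged to B0285.3 (III:4341977-4343336, minus strand). It had 19.2, 19.1, 20.2 and 19.8 CPM in light minus ATR libraries, against 23.9, 22.4, 24 and 28.5 CPM in dark minus ATR libraries, a log2 fold change of -0.34 ± 0.07 (SE, edgeR adjusted p = 0.142). With ATR the value was 0.06, and the difference between the 2 light effects, tested as an interaction of light and ATR, was 0.40 (edgeR, adjusted p = 0.0122). The F-box gene fsn-1, whose product is part of a ubiquitin ligase that acts at synapses, averaged 120 ± 2.14 CPM in light minus ATR libraries and 134 ± 4.99 CPM in dark minus ATR libraries (SD, n = 4 each). The libraries of the groups are close but do not overlap, with -0.16 ± 0.03 (SE) on the log2 scale. The CENP-A-like centromeric histone gene cpar-1 averaged 66.3 ± 1.36 CPM in light minus ATR libraries and 75.0 ± 1.67 CPM in dark minus ATR libraries (SD, n = 4 each). For tbh-1, the tyramine beta-hydroxylase that makes octopamine, the means were 197 ± 9.39 CPM in light minus ATR libraries and 225 ± 8.26 CPM in dark minus ATR libraries (SD, n = 4 each).

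The remaining genes of the lower 10 were Y54F10AM.11, C01G8.1, lido-9, mesp-1, F02E9.7 and the pseudogene K08C9.8. The first 5 of these were expressed at means of 29.6 to 238 CPM in light minus ATR libraries, with log2 fold changes of -0.16 to -0.25. The product of mesp-1 acts in the meiotic spindle. K08C9.8 was the exception in size and level, with a log2 fold change of -0.93 at 0.763 ± 0.136 CPM in light minus ATR and 1.45 ± 0.278 CPM in dark minus ATR libraries (SD, n = 4 each). The groups did not overlap for any of these 20 genes, which were chosen for their small p, so that this is a description and not a test. Each kept its direction under all 18 alternative settings.

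**Figure D2:**
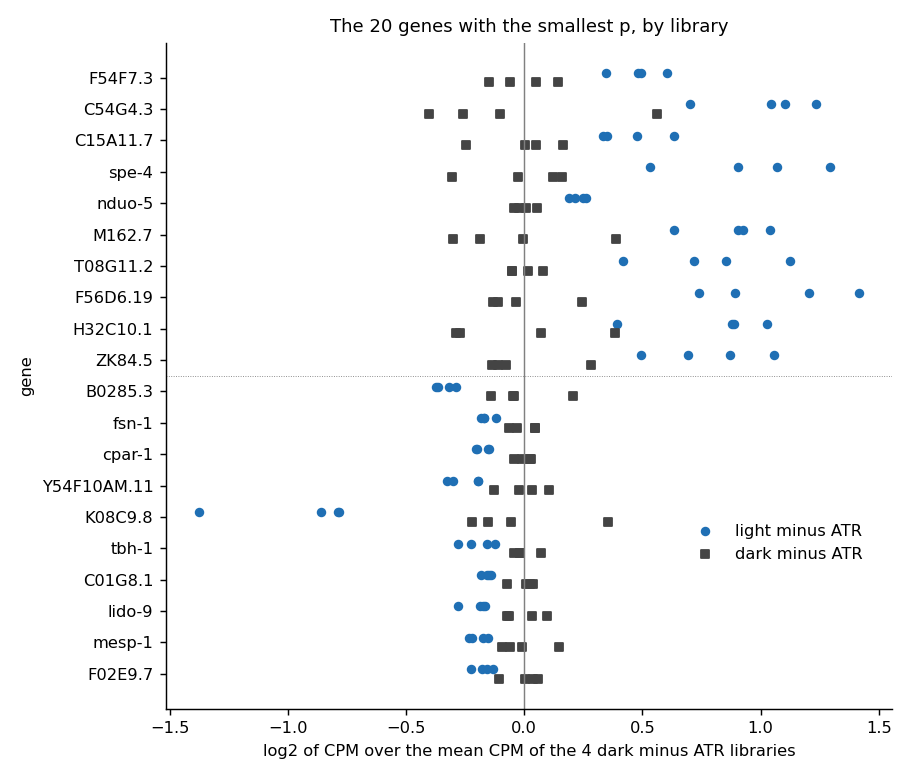
The 10 genes with the smallest p and a higher level in light (above the dotted line) and the 10 with a lower level (below it), each row 1 gene; the horizontal axis is the log2 of a library's CPM over the mean CPM of the 4 dark minus ATR libraries. Circles are light minus ATR libraries and squares dark minus ATR libraries, and in all 20 rows the circles lie to 1 side of the squares, the genes having been chosen for their small p.

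Gene lists were read by the direction of their members. The list that stood furthest from the genes at large was that of sperm genes, among them the major sperm proteins (MSPs, the abundant cytoskeletal proteins of crawling nematode sperm). Of 100 sperm genes named, 81 could be tested, 78 had a positive and 3 a negative log2 fold change, and the median was 0.52, beside 0.00 over all genes tested. None was called, while spe-4 was called under ERCC scaling, without a filter and without light minus ATR replicate 2. Without adjustment 59 were higher and 1, spe-48, was lower, where 7.98% and 5.39% of all genes were, and 23 did not overlap upwards, where 3.31% of all genes did. DESeq2 called 8 of the sperm genes higher and 0 lower, where it called 0.858% of all genes higher and 0.474% lower.

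The CPM of the sperm genes summed to 1840, 1520, 1900 and 2140 in light minus ATR libraries, against 1580, 1290, 1230 and 1260 in dark minus ATR libraries. Dark minus ATR replicate 1 was above light minus ATR replicate 2, so the groups overlapped by this pair, and the log2 ratio of the mean sums was 0.46. The larger part of these counts was from MSP genes, which are near-identical copies of each other, so that the count of a single one is uncertain and their sum is the safer measure. All 30 MSP genes tested of 35 had a positive log2 fold change, between 0.45 and 0.66. Of these, 27 had an unadjusted p under 0.05, where 7.98% of all genes were higher at that threshold. Summed, they reached 1180, 957, 1230 and 1410 CPM in light minus ATR libraries, against 995, 793, 750 and 752 CPM in dark minus ATR libraries.

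Single sperm genes, named after their values were seen, were much alike in their fold changes although they serve different steps. For msp-57 the levels were 76.2, 65.1, 82.9 and 90.6 CPM in light minus ATR libraries, against 64.1, 48.2, 50.4 and 49.2 CPM in dark minus ATR libraries, which do not overlap (log2 fold change 0.57 ± 0.17, SE). The sperm protein phosphatase gene gsp-3, needed for MSP-based movement, had 27.8, 22.4, 25.8 and 33.3 CPM in light minus ATR libraries, against 20.2, 17.5, 14.2 and 19.3 CPM in dark minus ATR libraries (0.61 ± 0.19), and its near copy gsp-4 had a log2 fold change of 0.51. The myosin gene spe-15, which acts when organelles are divided between spermatids and residual bodies, had 29.7, 26.4, 32.3 and 35 CPM in light minus ATR libraries, against 25.3, 22.2, 19.3 and 19.9 CPM in dark minus ATR libraries (0.51 ± 0.12). The values of the sperm-specific family genes sss-1 (0.49), nspd-1 (0.58) and ssp-10 (0.54) were similar. In each of these 7 genes light minus ATR replicate 4 was the highest library of its group and replicate 2 the lowest.

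Some members of the sperm list had values near or below 0. The transcription factor gene spe-44, which switches on spermatogenesis genes, had 20.6 ± 1.17 CPM in light minus ATR libraries and 20.6 ± 0.232 CPM in dark minus ATR libraries (SD, n = 4 each; log2 fold change 0.00, 95% interval -0.13 to 0.13, and -0.01 with DESeq2's size factors). For spe-39, a vesicle-sorting gene also used outside the germline, the log2 fold change was -0.05 (-0.14 to 0.04), turning to 0.05 under ERCC scaling, and for spe-48 it was -0.12 (-0.22 to -0.02). The interval of spe-44 does not reach the list's median.

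In worms with ATR the sperm list had a median log2 fold change of 0.68, with 70 of the 81 members called higher and 1 lower, where 16.16% of all genes were called higher and 11.6% lower. The member called lower was spe-39 (edgeR, log2 fold change -0.11, adjusted p = 0.0466). These 8 libraries share no sample with the comparison without ATR, but the labels do not say whether same-numbered libraries share a culture. The sperm sum was highest in replicate 4 of both light minus ATR (2140 CPM) and light plus ATR (2920 CPM). In the dark it was highest in replicate 1 without ATR (1580 CPM) and in replicate 2 with ATR (1800 CPM). None of the 81 sperm genes had an adjusted p under 0.05 for the interaction of light and ATR, where 5.23% of all genes did, and a p that misses the threshold does not show that the effects were equal. For spe-4 the interaction was -0.26 (edgeR, adjusted p = 0.659) and for msp-57 it was 0.11 (edgeR, adjusted p = 0.887).

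**Figure D3:**
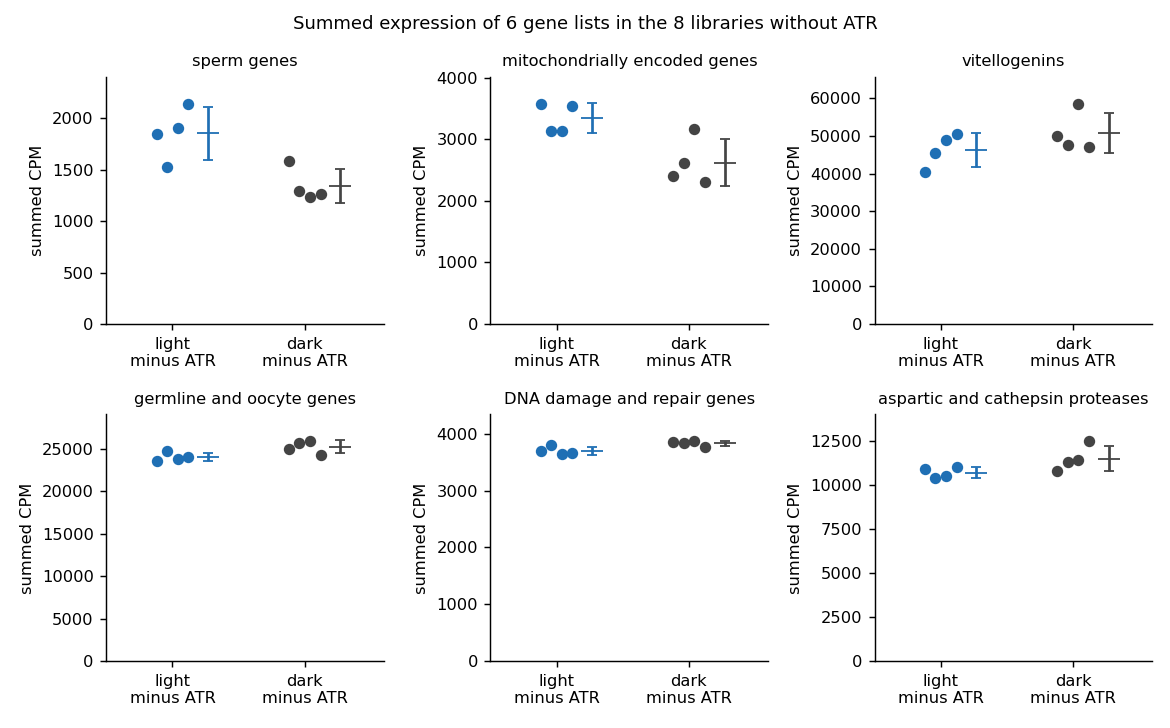
Summed CPM (vertical axis, from 0) of 6 gene lists in each library, with light minus ATR libraries on the left and dark minus ATR libraries on the right of each panel; circles are libraries, and the bars are the mean and SD of 4 libraries. Sperm genes averaged 1850 ± 255 CPM in light and 1340 ± 159 CPM in the dark, and mitochondrially encoded genes 3350 ± 246 CPM in light and 2620 ± 384 CPM in the dark, while the log2 ratio of the mean sums was -0.13 to -0.05 in the other 4 lists under TMM scaling, of which all but the vitellogenins have a median that turns positive under ERCC scaling.

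The 12 protein-coding genes of the mitochondrial genome all had positive log2 fold changes, with a median of 0.32. Their products are subunits of respiratory complexes I, III and IV and of the ATP synthase. Summed, they took 3580, 3140, 3130 and 3540 CPM in light minus ATR libraries, against 2400, 2610, 3170 and 2310 CPM in dark minus ATR libraries. The groups overlapped through dark minus ATR replicate 3, and the share of counts on these genes was 0.306% to 0.361% in light minus ATR and 0.230% to 0.313% in dark minus ATR libraries (two-sided exact permutation test, p = 0.0571, or 0.286 after adjustment over the 5 library measures compared). Only nduo-5 and ctc-1, a cytochrome c oxidase subunit, had an unadjusted p under 0.05, where 7.98% of all genes were higher at that threshold. For ctc-1 the levels were 1390, 1250, 1230 and 1380 CPM in light minus ATR libraries, against 936, 1060, 1240 and 873 CPM in dark minus ATR libraries (log2 fold change 0.35 ± 0.16, SE, edgeR adjusted p = 0.365).

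Other members were further apart but more variable. The log2 fold change of ctc-2 was 0.62 ± 0.33, that of cytochrome b (ctb-1) was 0.46 ± 0.21 and that of atp-6 was 0.59 ± 0.37 (SE), where the annotated exons of atp-6 and nduo-1 overlap. The values of nduo-1 (0.10) and ctc-3 (0.29) were smaller. Libraries were made from poly(A) RNA, so mitochondrial transcripts were counted as far as poly(A) selection captured them, and any part of poly(A) tailing in the difference was not tested. With ATR the median of the 12 genes was -0.05 and none was called, and the summed level in light plus ATR libraries, 2160 to 3840 CPM, overlapped that in dark plus ATR libraries, 2970 to 3970 CPM. No interaction was called for any of the 12. Over all genes, 5.23% had an interaction called, and with ATR 16.16% were called higher and 11.6% lower. The 55 nuclear genes of the respiratory chain list had a median of -0.02 without ATR, and the 67 mitochondrial ribosomal protein genes one of -0.01.

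Vitellogenins, the yolk proteins that the adult intestine makes for oocytes, had lower levels in light minus ATR worms in all 6 genes, with log2 fold changes of -0.23 to -0.10, under TMM scaling, and in all but vit-2 and vit-6 under ERCC scaling. At an unadjusted p under 0.05 4 of them were lower, where 5.39% of all genes were, and none was called. For vit-3 the levels were 2410, 2760, 2820 and 2770 CPM in light minus ATR libraries, against 2940, 3000, 3540 and 3120 CPM in dark minus ATR libraries, which do not overlap. Its log2 fold change was -0.23 ± 0.07 (SE, edgeR adjusted p = 0.189). The near copy vit-4 had -0.23 and vit-5 had -0.18, neither with overlap, and reads may be shared among these similar genes. For vit-2 and vit-6, the most abundant, the values were -0.10 and -0.10 and turned to 0.01 and 0.01 under ERCC scaling. The light minus ATR libraries carried 40400 to 50400 CPM on the 6 genes together and the dark minus ATR libraries 47000 to 58600 CPM.

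With ATR all 6 vitellogenins fell, where 11.6% of all genes did, at a median of -1.25. In vit-4 the mean was 743 ± 84.9 CPM in light plus ATR libraries and 3250 ± 144 CPM in dark plus ATR libraries (SD, n = 4 each), which is -2.13 on the log2 scale (edgeR, adjusted p = 2.08e-14). The interaction of light and ATR was called for vit-1 (-1.36), vit-3 (-1.89), vit-4 (-1.90) and vit-5 (-0.78), and not for vit-2 (-0.28, edgeR adjusted p = 0.3) or vit-6 (-0.36, edgeR adjusted p = 0.143).

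Germline, DNA repair and lysosomal protease genes had small values below 0. Under scaling by ERCC spike-ins the median of all genes moved to 0.11 from the 0.00 of TMM scaling, a shift of at least about the size of these values, so their direction is relative to the other genes and the medians of these 3 lists turned positive under that scaling (0.06, 0.07 and 0.01). Dark minus ATR replicate 4 had an ERCC share of 0.953%, against 0.783% to 0.812% in the rest of its group. How far the ERCC shift and the sign turns under it depend on that library was not tested. Of 40 germline and oocyte genes, 34 had a negative log2 fold change (median -0.05), and 7 were lower and 1 higher at an unadjusted p under 0.05, where 5.39% and 7.98% of all genes were. DESeq2 called 3 lower, where it called 0.474% of all genes lower. The eggshell permeability barrier gene perm-2 had 736, 762, 731 and 730 CPM in light minus ATR libraries, against 785, 859, 844 and 844 CPM in dark minus ATR libraries, a log2 fold change of -0.17 ± 0.05 (SE). With ATR, 18 members of this list fell and 4 rose, where 11.6% of all genes fell and 16.16% rose.

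Of 40 DNA damage and repair genes, 34 had a negative log2 fold change (median -0.03), and 10 were lower and 0 higher at an unadjusted p under 0.05, where 5.39% and 7.98% of all genes were. DESeq2 called 4 lower, where it called 0.474% of all genes lower. Those 4, named after their values were seen, were hpr-17 (checkpoint clamp loader, log2 fold change -0.18), the base excision repair endonucleases apn-1 (-0.13) and exo-3 (-0.17), and the translesion polymerase gene polk-1 (-0.12). In hpr-17 the levels were 58.0, 62.3, 57.7 and 60.7 CPM in light minus ATR libraries, against 66.1, 67.3, 63.2 and 72.6 CPM in dark minus ATR libraries. The groups of these 4 genes did not overlap, and none of the 4 was called with ATR (log2 fold changes of -0.09 to -0.02).

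Of 22 aspartic and cathepsin protease genes, most of them expressed in the intestine, 17 had a negative log2 fold change (median -0.11), and 8 were lower and 0 higher at an unadjusted p under 0.05, where 5.39% and 7.98% of all genes were. With ATR the list divided, with 13 genes called higher and 7 lower (median 0.35), where 16.16% and 11.6% of all genes were. The interaction was called for 16 of the 22, where it was for 5.23% of all genes. The aspartic protease gene asp-12 had 46.5, 54.3, 33.1 and 45.5 CPM in light minus ATR libraries, against 67.0, 67.6, 44.4 and 63.3 CPM in dark minus ATR libraries, where the groups overlap (log2 fold change -0.44 ± 0.16, SE, edgeR adjusted p = 0.249). With ATR it averaged 353 ± 33.9 CPM in light and 45.8 ± 4.06 CPM in the dark (SD, n = 4 each), and its interaction was 3.38 (edgeR, adjusted p = 4.74e-07). The cathepsin B-like gene cpr-6 was lower in both, at -0.17 without and -0.46 with ATR, and that difference was also called (-0.29, edgeR adjusted p = 0.00487).

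**Figure D4:**
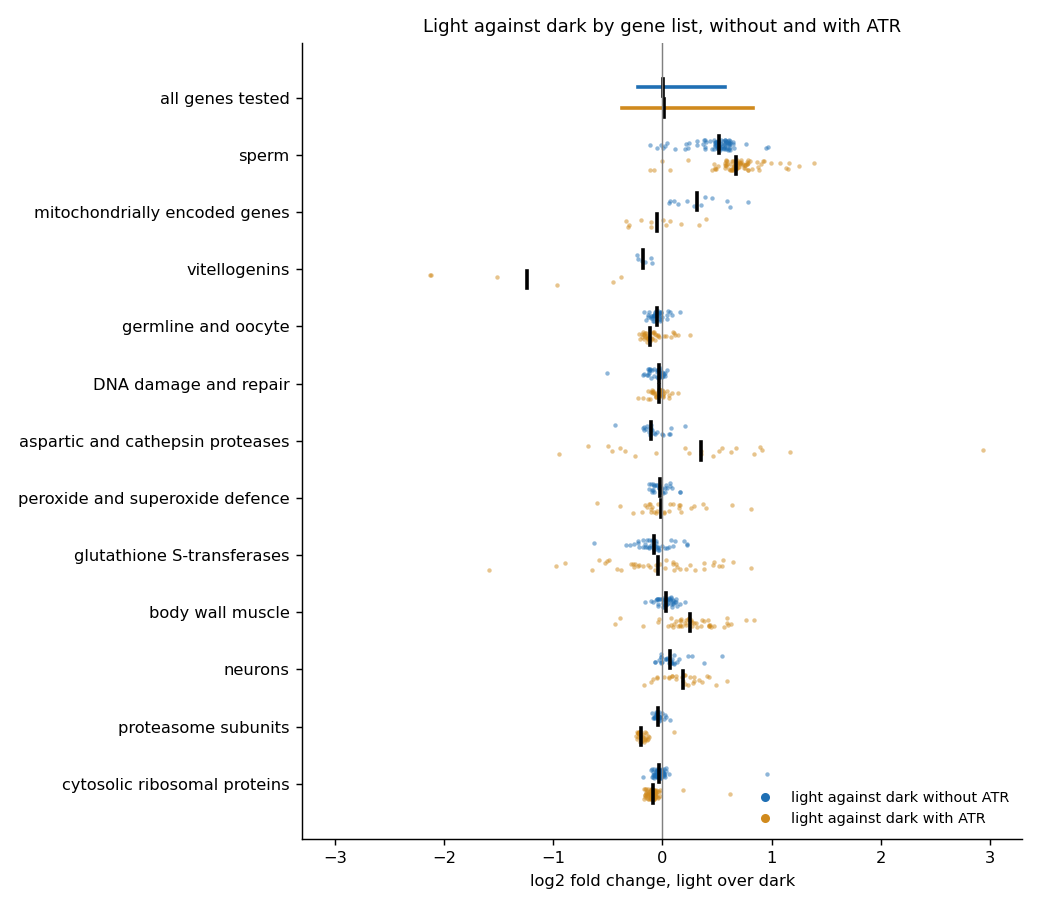
Log2 fold change of light over dark (horizontal axis) for 12 gene lists (rows), without ATR in blue above and with ATR in orange below; points are genes, black ticks are medians, and the bars in the first row span the 5th to the 95th percentile of all genes tested. The sperm medians are 0.52 without and 0.68 with ATR, those of the vitellogenins -0.17 and -1.25, and those of the proteases -0.11 and 0.35; under ERCC scaling the protease median without ATR turns to 0.01, and those of the germline, DNA repair, peroxide, glutathione S-transferase, proteasome and ribosomal protein lists also turn positive.

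No light sensing gene had a p under the threshold. For lite-1 the levels were 2.74, 3.42, 2.68 and 2.60 CPM in light minus ATR libraries, against 2.66, 3.76, 3.59 and 3.13 CPM in dark minus ATR libraries, which overlap (log2 fold change -0.20, 95% interval -0.50 to 0.11, edgeR adjusted p = 0.591). The second photoreceptor gene, gur-3, had only 1 to 3 counts per library in light minus ATR and 2 to 3 in dark minus ATR worms, 9 in all in either group, and was too low to be tested. Of 14 light sensing genes tested, 0 had an unadjusted p under 0.05 in either direction, where 7.98% and 5.39% of all genes did. The 14 include guanylyl cyclases and G proteins of light-responsive neurons, and of cyclic nucleotide-gated channel genes only tax-2. The smallest p of the list was that of the phosphodiesterase gene pde-1 (log2 fold change 0.23, edgeR adjusted p = 0.395). The 8 homologs of clock genes had 0 as well, with values of -0.09 to 0.15.

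Genes of peroxide and superoxide defence were close to 0. Of 30 tested, 1 was higher at an unadjusted p under 0.05 and 0 lower, where 7.98% and 5.39% of all genes were. All 30 values lay between -0.13 and 0.16 (median -0.02, or 0.09 under ERCC scaling). The 1 gene was gpx-3, a glutathione peroxidase (log2 fold change 0.16, edgeR adjusted p = 0.306). The peroxiredoxin gene prdx-2 had -0.09 (95% interval -0.19 to 0.01) and the peroxisomal catalase gene ctl-2 had -0.08 (-0.17 to 0.02). The cytosolic superoxide dismutase gene sod-1 had -0.08 (-0.20 to 0.04). All 3 intervals span 0, and none reaches beyond -0.20 or 0.04. For the mitochondrial superoxide dismutase gene sod-3, a common reporter of insulin signalling, the mean was 6.16 ± 1.14 CPM in light minus ATR and 5.54 ± 0.350 CPM in dark minus ATR libraries (SD, n = 4 each; log2 fold change 0.16, 95% interval -0.11 to 0.42, and 0.02 without light minus ATR replicate 3).

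Of 24 cytosolic heat shock genes none had an unadjusted p under 0.05. The widest value was that of hsp-16.49, a near-identical copy of another hsp-16 gene, whose counts are therefore uncertain (log2 fold change 5.72 ± 6.09, SE), and the other values lay between -0.47 and 0.34. The small heat shock gene hsp-16.11 had 7.10, 7.38, 8.74 and 6.22 CPM in light minus ATR libraries, against 6.63, 6.83, 9.48 and 9.87 CPM in dark minus ATR libraries (log2 fold change -0.16, 95% interval -0.66 to 0.34, and -0.26 to -0.06 with 1 library left out), and hsp-16.2 had 0 to 4 counts per library in light minus ATR and 1 to 5 in dark minus ATR worms, too few to be tested. For hsp-4, the endoplasmic reticulum BiP chaperone, the log2 fold change was -0.06 (-0.15 to 0.03), or 0.05 under ERCC scaling, and for the mitochondrial chaperone gene hsp-6 it was 0.06 (-0.06 to 0.17). Of 21 genes of the endoplasmic reticulum stress response 1 was higher (dnj-20, log2 fold change 0.14) and 2 were lower (cup-2, -0.11, and crt-1, -0.09) at an unadjusted p under 0.05, and of 16 genes of the mitochondrial unfolded protein response 1 was lower (haf-1, -0.23), where 7.98% of all genes were higher and 5.39% lower.

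**Figure D5:**
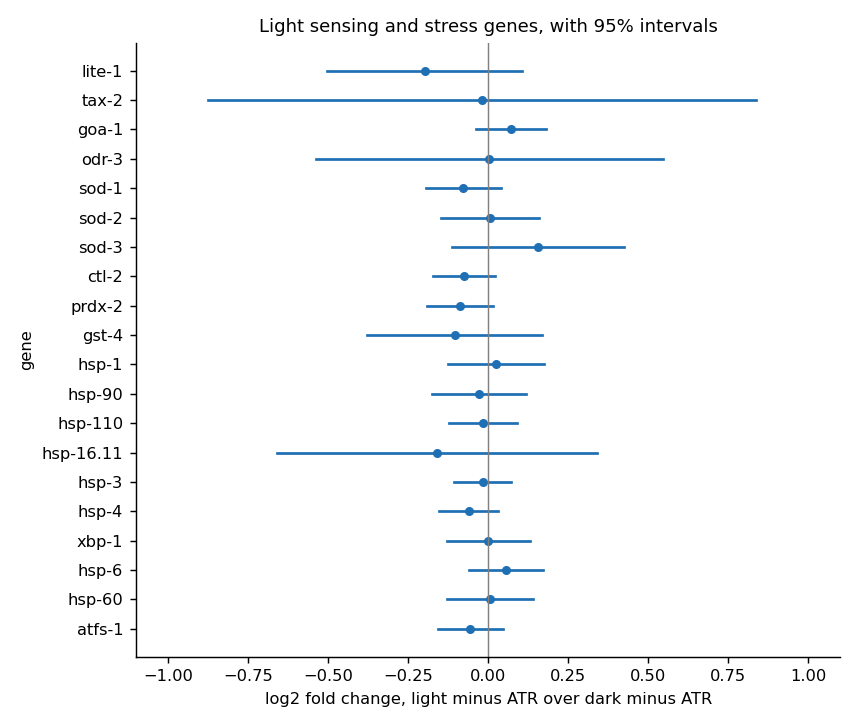
Log2 fold change of light minus ATR over dark minus ATR (horizontal axis) with its 95% interval for 20 light sensing and stress genes (rows). Every interval spans 0, and those of tax-2, odr-3 and hsp-16.11 are among the widest. The width for odr-3 (log2 fold change 0.00, edgeR unadjusted p = 0.998) is unreliable. Its standard error was taken from a fold change close to 0 and the test statistic. Under ERCC scaling, which moved the median of all genes to 0.11, hsp-4 and gst-4 turn positive (0.05 and 0.02).

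The glutathione S-transferase gene gst-4, a reporter of the oxidative stress factor SKN-1, averaged 13.3 ± 1.06 CPM in light minus ATR libraries and 14.2 ± 3.13 CPM in dark minus ATR libraries (SD, n = 4 each). The libraries overlap (log2 fold change -0.11, 95% interval -0.38 to 0.17), the sign turned under ERCC scaling (0.02), and its exons overlap those of dhs-12. Of 42 glutathione S-transferase genes, 33 had a negative value, as 7329 of the 15044 genes tested did, and 4 were lower at an unadjusted p under 0.05 (gst-1, gst-7, gst-10 and gst-34), where 5.39% of all genes were, at a median of -0.08 that became 0.03 under ERCC scaling. Of these 4, gst-10 had a log2 fold change of -0.21 without ATR and -0.98 with ATR, and the interaction was called (-0.76, edgeR adjusted p = 5.13e-05).

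The stress reporters were also read in the worms with ATR, where the channel was functional. There hsp-4 had a log2 fold change of -0.36 (edgeR, adjusted p = 1.66e-06), gst-4 one of -0.58 (edgeR, adjusted p = 0.00254) and sod-3 one of -0.60 (edgeR, adjusted p = 0.00114). The interaction was called for hsp-4 (-0.30, edgeR adjusted p = 0.00235) and sod-3 (-0.76, edgeR adjusted p = 0.00928). For hsp-6 the log2 fold change with ATR was -0.08 (edgeR, adjusted p = 0.306), and its interaction was not called (-0.13, edgeR adjusted p = 0.403). Nor was the interaction called for gst-4 (-0.48, edgeR adjusted p = 0.152) or hsp-16.11 (-0.75, edgeR adjusted p = 0.258).

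Of 47 body wall muscle genes, 4 were higher and 0 lower at an unadjusted p under 0.05, where 7.98% and 5.39% of all genes were, with a median of 0.03. With ATR 34 of them rose and 3 fell (median 0.25), where 16.16% of all genes rose and 11.6% fell. The promoter donor myo-3, a body wall muscle myosin, had a log2 fold change of 0.07 without ATR and 0.59 with ATR, and the difference was called (0.52, edgeR adjusted p = 0.00121). Of 28 neuronal genes 2 were higher and 0 lower (unc-10, 0.27, and ric-4, 0.24, both genes of synaptic vesicle release), a share near the 7.98% of all genes. Of 20 intestinal genes 1 was higher (pgp-3, log2 fold change 0.19) and 4 were lower at an unadjusted p under 0.05, where 7.98% and 5.39% of all genes were. The 4 were the metallothionein gene mtl-2 (-0.15) and asp-1, asp-3 and asp-4 (-0.11, -0.14 and -0.15), of which the asp genes are also on the protease list. Of 12 early embryonic genes 3 were higher and 0 lower by this measure, the transcription factor genes pha-4 (0.27) and elt-1 (0.20) and the gene sdz-28 (0.38). The lists of hypodermis (20 tested), glia (9), pharyngeal muscle (12) and coelomocytes (5) had 2, 1, 0 and 0 higher and 0 lower members. Of 33 proteasome subunit genes 0 had an unadjusted p under 0.05 (median -0.04, or 0.06 under ERCC scaling), and with ATR 28 fell (median -0.20), where 11.6% of all genes did. Of 81 cytosolic ribosomal protein genes 1 was higher, rpl-42 (log2 fold change 0.96), a gene of low level here (-0.33 log2 CPM).

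Between light plus ATR and dark plus ATR worms, measured on 8 other libraries, 2431 genes were called higher (16.16%) and 1738 lower (11.6%), and an interaction of light and ATR was called for 787 genes (5.23%). The genes with a p under 0.05 without ATR were read in these libraries as a description. Of the 1201 higher without ATR, 1099 were positive with ATR, 802 (66.8%) were called higher and 18 were called lower. Of the 811 lower without ATR, 641 were negative with ATR, 225 (27.7%) were called lower and 28 higher. The 114 genes that DESeq2 called higher without ATR included 105 that edgeR called higher with ATR, and its 63 lower genes included 18 called lower. Conversely, of the 4169 genes called with ATR, 3224 (77.3%) had the same sign without ATR, beside 64.9% of all genes tested, with a median size of 0.10 without and 0.44 with ATR. The genes higher with ATR had a median of 0.19 without ATR and 0.66 with it, and the genes lower with ATR had medians of -0.04 and -0.22. Among the genes with a p under 0.05 without ATR, the interaction was called for 43 of the higher and 71 of the lower ones.

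The share of genes with an unadjusted p under 0.05 and a higher level in light minus ATR worms varied by chromosome. It was largest among the nuclear chromosomes on IV, where 313 of 2593 genes tested had such a value, and smallest on X, with 88 of 2092 (4.21%), beside 9.04% on I, 8.02% on II, 7.68% on V and 5.98% on III. For lower levels the share was between 3.01% on X and 6.62% on III. Of the 14 mitochondrial genes tested 3 were higher (nduo-5, ctc-1 and MTCE.33) and 0 lower. Of the 81 sperm genes 34 lay on chromosome IV and 0 on X, with 27 of the 34 among the higher genes, and without the sperm list the share of higher genes was 11.2% on IV and 4.21% on X.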

How the data were processed

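Whole-worm poly(A) RNA of 4 conditions, in 4 biological replicates each, was sequenced as stranded paired-end TruSeq libraries with ERCC spike-ins. The authors mapped the reads to WBcel235 in an nf-core pipeline and deposited estimated counts per gene from salmon, not normalized. A table of the whole series that is named for TPM holds the same estimated counts and was treated as such. The submitters' processing notes name R 4.0.3 and DESeq2 1.30.1. Those tools were used by them for other contrasts.

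Here these estimated counts were taken to the nearest whole number. Low genes were removed by filterByExpr with the 4 conditions as groups, libraries were scaled by TMM, and the 15044 genes left were fitted over all 16 libraries at once. The contrasts were tested with the robust quasi-likelihood test of edgeR 4.0.16 in R 4.3.3, p-values were adjusted by the Benjamini-Hochberg method over these genes, and an adjusted p under 0.05 was called. The fit left 12 residual degrees of freedom. CPM values are per 1000000 counts of the TMM-scaled total on genes, and intervals are 95% intervals of the fitted log2 fold change. Standard errors were taken from the fold change and its test statistic, so they are unreliable where the fold change is close to 0. Tests run across many genes were checked on simulated data. ERCC sequences were left out of library sizes. DESeq2 1.42.0, limma 3.58.1 with a prior count of 2, other scalings (DESeq2 size factors, library totals, ERCC totals), filters (none, or a mean count of 10), only 8 libraries, a replicate block and leaving out each library were the alternatives. The 8 libraries with a block were added after the data were seen.

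Gene names are those of the tables, and positions come from Ensembl release 115, on the same build, which holds 46817 of the 46904 genes. Of the names in the 44 gene lists 4 matched no gene. The comparison, the lists and the tests were chosen with earlier results of these data known. Named by rule are the genes passing the threshold or, where fewer than 10 pass, the 10 smallest p in each direction, at most 4 called members per list, and lite-1, gur-3, hsp-16.2, hsp-4, hsp-6, gst-4 and sod-3. Every further gene in the text was chosen with its values in view. Depth limits low genes most. No replicate pair within a group agreed within sampling noise (chi-square per gene of 2.55 to 12.8), so no library was counted as a duplicate. Sequences were not used here.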

Additional observations from a re-analysis of the deposited data

Results flagged for a closer look

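Within groups of 4 libraries, single values that stood apart from the other 3 by Dixon's test were looked for in 74 groups of values, of which chance alone flags about 1 in 20, and 4 were found. The pseudogene K08C9.8 had 0.561 CPM in light minus ATR replicate 4, against 0.803 to 0.845 CPM in the other 3 libraries. The photoreceptor gene lite-1 had 3.42 CPM in light minus ATR replicate 2, against 2.60 to 2.74 CPM in the other 3. ZK84.5 had 1.58 CPM in dark minus ATR replicate 1, against 1.18 to 1.23 CPM in the other 3. The ERCC share was 0.953% in dark minus ATR replicate 4, against 0.783% to 0.812% in the other 3.

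The effect of light differed between worms with and without ATR, by edgeR's interaction term with Benjamini-Hochberg adjustment, for the 9 named genes below. This count leaves out the cell type markers and further list members such as gst-10, given above. Of the markers, myo-3 (0.52, adjusted p = 0.00121) and the intestinal ges-1 (-0.37, adjusted p = 0.00215) were also called. The yolk genes had interactions of -1.36 (vit-1, adjusted p = 5.27e-09), -1.89 (vit-3, adjusted p = 1.05e-10), -1.90 (vit-4, adjusted p = 1.3e-10) and -0.78 (vit-5, adjusted p = 2.77e-05) on the log2 scale. The protease genes had 3.38 (asp-12, adjusted p = 4.74e-07) and -0.29 (cpr-6, adjusted p = 0.00487). The stress reporters had -0.30 (hsp-4, adjusted p = 0.00235) and -0.76 (sod-3, adjusted p = 0.00928). B0285.3 had 0.40 (adjusted p = 0.0122).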

How the results depend on the processing

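The count of genes higher in light minus ATR than in dark minus ATR worms, 0 in edgeR with TMM scaling, was 114 with DESeq2, 2 with library totals and with limma-trend (C54G4.3 and F54F7.3 in both), 3 with ERCC scaling (C15A11.7, C54G4.3 and spe-4) and 4 without a filter (C15A11.7, C54G4.3, F54F7.3 and spe-4). It stayed 0 with DESeq2's size factors, with a mean count of 10 and with only the 8 libraries. Leaving out 1 library gave 0 to 9 genes, with 3 without light minus ATR replicate 2 and 9 without dark minus ATR replicate 1. The count of lower genes was 63 with DESeq2 and 0 under the other planned settings, leaving out each library included. The replicate number was not shown to pair the libraries, since same-numbered light and dark libraries deviated together with correlations of 0.113, 0.112, -0.08 and 0.141, and 3 of 4 light libraries correlated best with their own number. The replicate block over all 16 libraries gave 0 higher and 0 lower genes, 4506 genes changed with ATR in place of 4169 and 1062 interactions in place of 787. The 8 libraries with the replicate block, a fit added after the data were seen, gave 272 higher and 19 lower of all 14165 genes tested. Of the 81 sperm genes 23 were among the higher ones in that fit. The unadjusted split of 1201 higher and 811 lower became 1974 and 15 with ERCC scaling, 1451 and 406 with library totals and 1149 and 580 with only the 8 libraries, of 14165 genes tested. DESeq2 called 4254 genes with ATR and 935 interactions.

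Small values turned sign. Under ERCC scaling these were hsp-4 (0.0463), gst-4 (0.0234), spe-39 (0.0542), vit-2 (0.00776) and vit-6 (0.00973). ERCC scaling was not repeated without dark minus ATR replicate 4, whose ERCC share stood above the rest of its group. For gst-4, leaving out 1 library gave -0.215 to 0.0431. For spe-44 the value was -0.00602 with DESeq2, -0.00734 with its size factors, -0.00517 without a filter, -0.00516 with a mean count of 10, -0.00156 with limma-trend and -0.0259 to 0.038 with 1 library left out. Of the values of named genes under alternatives, 957 kept direction and side of the threshold, 71 passed it and 16 reversed. The sperm median ranged from 0.44 to 0.62. The cause of these changes was not tested. Genes with few counts, such as gur-3 and hsp-16.2, could not be tested at this depth.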

Other observations

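Further genes were read after their values were seen, so the following is a description. Some of the eggshell and PUF genes below, perm-2 among them, are also on the germline and oocyte list. Their counts are therefore not separate from those of that list. Of 11 further genes with known roles in spermatogenesis 10 could be tested, all 10 were higher in light minus ATR worms at an unadjusted p under 0.05 (7.98% of all genes were), none was called in edgeR, and all 10 were called higher with ATR. The Argonaute genes alg-3 and alg-4, whose small RNAs act in the male germline, had log2 fold changes of 0.66 and 0.70. The MSP domain genes msd-1, msd-2 and msd-4 had 0.62, 0.66 and 0.52, the histone H2A variant gene htas-1 had 0.59, and fer-1, needed for the fusion of sperm organelles, had 0.63. In fer-1 the mean was 2.91 ± 0.745 CPM in light minus ATR and 1.87 ± 0.140 CPM in dark minus ATR libraries (SD, n = 4 each).

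Eggshell genes, which are transcribed in oocytes, were all below 0 in 11 of 11 cases, at a median of -0.07, and 4 were lower at an unadjusted p under 0.05 (5.39% of all genes were), namely perm-2, perm-4, cpg-2 and cpg-3. This median is smaller than the 0.11 by which ERCC scaling moved the median of all genes. Of 10 PUF family RNA-binding genes tested, puf-3, puf-5, puf-6, puf-7 and puf-11 were lower at an unadjusted p under 0.05 and fbf-2, which acts in germline stem cells, was higher, where 5.39% of all genes were lower and 7.98% higher. The median of the 10 was -0.05, also smaller than that shift of 0.11. For puf-5, which acts in oocytes, the mean was 1060 ± 25.8 CPM in light minus ATR and 1150 ± 29.6 CPM in dark minus ATR libraries (SD, n = 4 each).

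Other single genes with a difference in the 8 libraries were sodh-1, an alcohol dehydrogenase, with 123, 79.8, 99.2 and 109 CPM in light minus ATR libraries, against 76.8, 58.7, 66.4 and 74.7 CPM in dark minus ATR libraries (log2 fold change 0.57, edgeR adjusted p = 0.181). The groups of sodh-1 do not overlap, and DESeq2 called it (adjusted p = 0.0247). The small gene kreg-1 had the widest spread, with 1.79, 0.595, 6.16 and 3.62 CPM in light minus ATR libraries, against 0.542, 0.376, 1.70 and 0.562 CPM in dark minus ATR libraries (log2 fold change 1.95 ± 0.73, SE, edgeR adjusted p = 0.268). Of 120 C-type lectin genes 14 were higher and 8 lower at an unadjusted p under 0.05, where 7.98% and 5.39% of all genes were, at a median of 0.02.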
